A study of Mus musculus with 12 samples.

Results

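The intercalated disc is the end-to-end contact between cardiomyocytes. Its transcripts were compared between hearts with and without cardiomyocyte CYB5R3 in whole-heart RNA-Seq counts. The genes were a named list of 10 out of the 53700 Ensembl genes of the count table, named by their known place at the disc, with earlier results of these hearts known when the list was drawn up. They comprised Dsg2, Dsc2, Dsp, Pkp2 and Jup of the desmosome, Des of the intermediate filaments, Cdh2 and Ctnna3 of the adherens junction, Gja1 of the gap junction and the scaffold gene Tjp1. All 10 were found by symbol and identifier, and all 10 passed the filter on low counts.

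Hearts came from 6 ac-WT mice (CYB5R3wt/wt, Myh6-CreERT2) and 6 ac-CYB5R3–KO mice (CYB5R3fl/fl, Myh6-CreERT2). Both groups carried the Cre transgene, which the Myh6 promoter drives in cardiomyocytes, and both received tamoxifen at an age of 10 to 13 weeks. The mice were males of a mixed FVB/B6 origin backcrossed to C57BL/6J, and hearts were taken 5 days after tamoxifen. Whole hearts hold endothelial cells, fibroblasts and other cells in which this Cre is not active, and in such samples fewer cells of a type cannot be told apart from less RNA per cell.

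Desmosomes tie the intermediate filaments of neighbouring cardiomyocytes together. The cadherins encoded by Dsg2 and Dsc2 cross the membrane, the armadillo proteins plakoglobin (Jup) and plakophilin 2 (Pkp2) bind their tails, and desmoplakin (Dsp) links this plaque to desmin (Des). Adherens junctions join the actin filaments through N-cadherin (Cdh2) and the α-catenins (Ctnna1, Ctnna3), and gap junction channels of connexin 43 (Gja1) carry current between cells, with ZO-1 (Tjp1) bound to the connexin tail. Inherited defects of the desmosomal genes are known causes of arrhythmogenic cardiomyopathy.

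Total counts lay between 43393183 and 53754284 per library. Values are given as CPM, counts scaled to a common library size with TMM factors, in which edgeR adjusts each total for the genes that dominate it. These factors were 0.570 and 0.723 in ac-WT mice 2 and 3 and between 0.988 and 1.22 in the other 10 hearts. The same hearts had the highest summed TMM-scaled levels of 10 cardiomyocyte markers, 53851 and 42386 CPM against 17149 to 28057 CPM elsewhere. Per total count without TMM factors these sums were 30667 and 30641 CPM, within the 20941 to 31584 CPM of the other hearts. Fibroblast markers, 6 in number, had the lowest sums there on both scales, at 1355 and 1382 CPM against 3547 to 6789 CPM with TMM factors and 771 and 999 CPM against 3935 to 7645 CPM without. Each disc gene is therefore also given without both mice. In 6 epithelial markers, a cell type rich in desmosomes, 5 stayed under 1 CPM in every heart, and their sum was 0.361 to 2.28 CPM (ac-WT) and 0.412 to 2.30 CPM (ac-CYB5R3–KO). Of the cardiomyocyte markers 4 of 10 were lower at an unadjusted edgeR p under 0.05, as were 1 of 3 tested atrial, 2 of 5 mural, 1 of 6 macrophage and 1 of 3 tested Schwann cell markers. Of 3 matched red blood cell markers 2 were higher, and 0 of 6 endothelial, 0 of 6 fibroblast, 0 of 4 mesothelial and 0 of 1 tested epithelial markers passed, while no adipocyte marker had enough counts to be tested. Of all genes tested, 9.73% were lower and 4.91% higher at that threshold. The part of these markers in the disc results was not tested. The targeted gene Cyb5r3 had 81.9 to 186 CPM in the ac-WT group and 42.0 to 67.4 CPM in the ac-CYB5R3–KO group, with no overlap (log2 fold change -1.22, SE 0.19, adjusted p = 0.0450, edgeR). Its adjusted p was 1.39e-06 in DESeq2, 0.0561 in limma-voom and 0.315 in edgeR with total counts in place of TMM.

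Across the disc genes, the desmosomal cadherins had the lowest log2 fold changes (ac-CYB5R3–KO against ac-WT) and desmin the highest. None of the 10 had an adjusted p under 0.05 in edgeR, where 0.101% of all 17847 genes tested were called. DESeq2, which called 2.45% of all genes, and limma-voom, which called 0.0112%, also called 0 of the 10. At an unadjusted edgeR p under 0.05 there were 4 of 10, against a background of 14.6% of all genes. Of these, Dsc2 and Dsg2 were lower, where the background for lower genes was 9.73%, and Des and Jup were higher, where the background for higher genes was 4.91%. Dsc2 alone had an unadjusted p under 0.01, as did 4.59% of all genes. In all, 2 of the 10 log2 fold changes were below 0, against 51.2% of all genes, and the median of the 10 was 0.087 against -0.007 over all genes. Without ac-WT mice 2 and 3 the counts were 3 of 10 at an unadjusted p under 0.05 (background 7.98%) and 0 at an adjusted p under 0.05 (background 0.0383%). Scaling by total counts in place of TMM gave 5 of 10 (background 11.5%) and 0 of 10 (background 0.0448%) and moved the median of all genes to 0.26. Both cadherins then lay nearer to 0, Dsc2 at -0.40 and Dsg2 at -0.11 (unadjusted p = 0.460, edgeR). In 0 of the 10 genes were the groups fully apart, as they were in 1.55% of all genes, 0.51% higher and 1.04% lower in ac-CYB5R3–KO hearts.

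**Figure D1:**
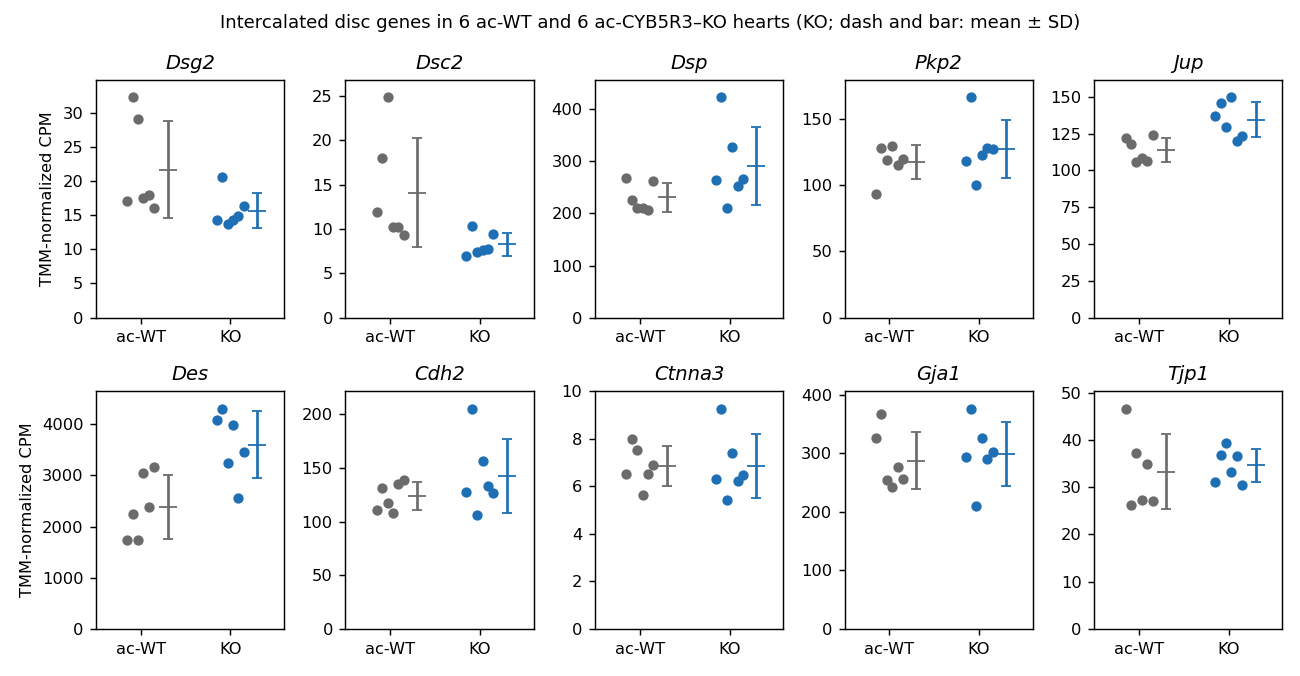
TMM-normalized CPM (vertical axes, linear from 0) of the 10 disc genes in each of 6 ac-WT hearts (grey) and 6 ac-CYB5R3–KO hearts (KO, blue), with the mean and SD of each group beside the points. The groups overlapped in every panel, and 2 grey points, ac-WT mice 2 and 3, lay far above the other ac-WT hearts for Dsg2 and Dsc2.

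Dsc2 (ENSMUSG00000024331, chromosome 18), desmocollin 2, had 9.37 CPM in the lowest ac-WT heart, a median of 11.1 CPM and 24.8 CPM in the highest. In ac-CYB5R3–KO hearts the lowest, median and highest values were 6.90, 7.70 and 10.4 CPM. All 6 ac-CYB5R3–KO hearts lay below the ac-WT median, and the 2 highest ac-WT hearts were mice 3 and 2. Its log2 fold change was -0.77 (SE 0.23, unadjusted p = 0.00498, adjusted p = 0.191, edgeR), and the two-sided exact permutation test gave p = 0.0152. Without ac-WT mice 2 and 3 the value was -0.32 (adjusted p = 0.550, edgeR).

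Dsg2 (ENSMUSG00000044393, chromosome 18), desmoglein 2, had an ac-WT range of 16.0 to 32.3 CPM around a median of 17.8 CPM. The ac-CYB5R3–KO range was 13.7 to 20.5 CPM around a median of 14.6 CPM. Here 5 of 6 ac-CYB5R3–KO hearts lay below the ac-WT median, and the exception was mouse 2. Between the groups the log2 fold change was -0.47 (SE 0.19, unadjusted p = 0.0256, adjusted p = 0.272, edgeR), and the exact permutation test gave p = 0.0563. Without ac-WT mice 2 and 3 it was -0.12 (adjusted p = 0.873, edgeR), so the value for Dsg2 rested on these mice.

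In the plaque, Jup was at an unadjusted edgeR p under 0.05 and Dsp and Pkp2 were not, and the groups overlapped for each. Jup (ENSMUSG00000001552, chromosome 11), plakoglobin, ran from 106 to 124 CPM with a median of 113 CPM in ac-WT hearts. In ac-CYB5R3–KO hearts it ran from 120 to 150 CPM with a median of 133 CPM, and all 6 lay above the ac-WT median. A log2 fold change of 0.24 resulted (SE 0.09, unadjusted p = 0.0223, adjusted p = 0.266, edgeR), the exact permutation p was 0.0108, and without ac-WT mice 2 and 3 the value was again 0.24 (adjusted p = 0.550, edgeR).

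Dsp (ENSMUSG00000054889, chromosome 13), desmoplakin, had 207, 219 and 267 CPM in the lowest, median and highest ac-WT heart and 210, 266 and 423 CPM in ac-CYB5R3–KO hearts. Mouse 2 of the ac-CYB5R3–KO group was the highest of all 12 hearts, and 1 ac-CYB5R3–KO heart lay below the ac-WT median. Its log2 fold change was 0.33 (SE 0.16, unadjusted p = 0.0548, adjusted p = 0.349, edgeR), and with each mouse left out in turn it stayed between 0.20 and 0.41. Pkp2 (ENSMUSG00000041957, chromosome 16), plakophilin 2, had 93.4 to 129 CPM (median 119) in the ac-WT group and 100.4 to 166 CPM (median 125) in the ac-CYB5R3–KO group. Its log2 fold change was 0.11 (SE 0.12, adjusted p = 0.681, edgeR), a difference smaller than the spread between mice. With each mouse left out in turn it ran from 0.025, without ac-CYB5R3–KO mouse 2, to 0.18.

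Des (ENSMUSG00000026208, chromosome 1), the muscle intermediate filament protein desmin, had the highest log2 fold change of the 10 genes. The lowest, median and highest values were 1731, 2308 and 3167 CPM in ac-WT hearts and 2558, 3720 and 4306 CPM in ac-CYB5R3–KO hearts. All 6 ac-CYB5R3–KO hearts lay above the ac-WT median, but mouse 5 of that group lay below 2 ac-WT hearts, mice 4 and 6. The log2 fold change was 0.60, a 1.51-fold difference (SE 0.20, unadjusted p = 0.0101, adjusted p = 0.218, edgeR). The exact permutation test gave p = 0.0108, DESeq2 gave an adjusted p of 0.0582, and without ac-WT mice 2 and 3 the value was 0.50 (adjusted p = 0.550, edgeR).

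**Figure D2:**
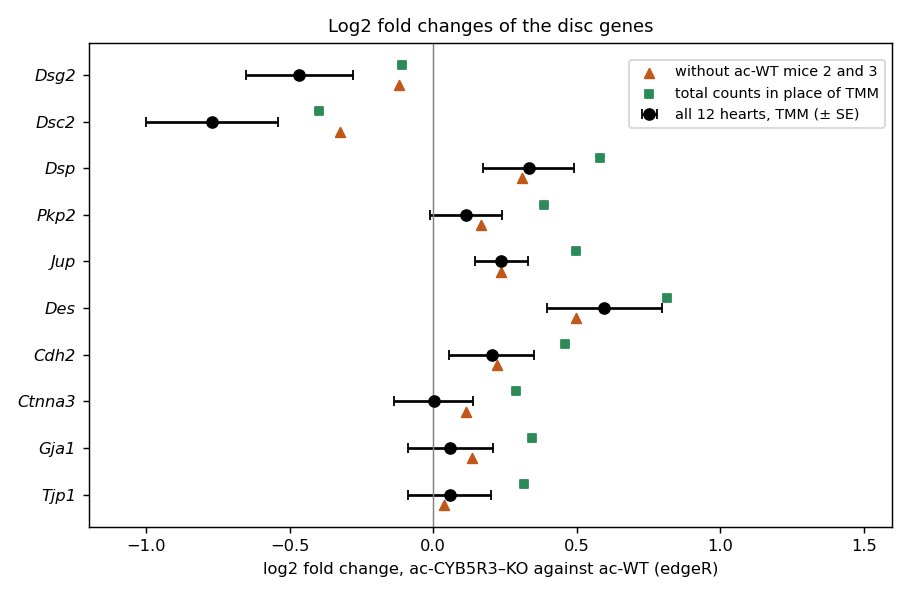
Log2 fold change of ac-CYB5R3–KO against ac-WT hearts (horizontal axis) for the 10 disc genes from edgeR with all 12 hearts and TMM factors (black circles with SE), without ac-WT mice 2 and 3 (triangles) and with total counts as scaling (squares). Dsc2 and Dsg2 lay below 0 in all 3 fits but moved from -0.77 to -0.32 and from -0.47 to -0.12 without the 2 mice, whereas Jup stayed at 0.24.

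In the adherens junction, Cdh2 (ENSMUSG00000024304, chromosome 18) encodes N-cadherin and had 108 to 139 CPM (median 124) in the ac-WT group. The ac-CYB5R3–KO group had 106 to 205 CPM (median 130.1). The highest value was again ac-CYB5R3–KO mouse 2. The log2 fold change of 0.20 (SE 0.15, adjusted p = 0.532, edgeR) was 0.07 without that mouse. Ctnna3 (ENSMUSG00000060843, chromosome 10), the αT-catenin that binds plakophilin 2, had medians of 6.71 and 6.40 CPM in the ac-WT and ac-CYB5R3–KO groups. The log2 fold change of 0.001 was far within its error (SE 0.14, adjusted p = 0.998, edgeR), and its sign turned with the scaling. Its range was 5.62 to 8.0 CPM in ac-WT and 5.41 to 9.27 CPM in ac-CYB5R3–KO hearts.

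Gja1 (ENSMUSG00000050953, chromosome 10), connexin 43, had 243, 266 and 366 CPM in the lowest, median and highest ac-WT heart and 210, 297 and 376 CPM in ac-CYB5R3–KO hearts. The lowest of all 12 hearts was ac-CYB5R3–KO mouse 3 and the highest ac-CYB5R3–KO mouse 2, so the ac-CYB5R3–KO range enclosed that of ac-WT hearts. Its log2 fold change was 0.06 (SE 0.15, adjusted p = 0.872, edgeR), within the spread between mice. Tjp1 (ENSMUSG00000030516, chromosome 7), ZO-1, had 26.3 to 46.6 CPM (median 31.1) in the ac-WT group, with the highest value in mouse 1, and 30.5 to 39.4 CPM (median 34.9) in the ac-CYB5R3–KO group. Its log2 fold change was 0.06 (SE 0.14, adjusted p = 0.873, edgeR), and with each mouse left out in turn it ran from 0.0055 to 0.18.

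Promoter stretches are shown for the 3 disc genes with the highest log2 fold changes, Des, Dsp and Jup, and for Gja1, which lay near 0 for comparison. RefSeq promoters were found for 6 of the 10 genes. Each line gives the 120 bases before the gene start, 5′ to 3′ on the gene's strand, from RefSeq on GRCm38.p6, and capitals mark matches on either strand to a TATA box (TATAAA), a GC box (GGGCGG), an E-box (CANNTG) or an M-CAT element (CATTCC).
Des, chr1:75360172-75360291, plus strand: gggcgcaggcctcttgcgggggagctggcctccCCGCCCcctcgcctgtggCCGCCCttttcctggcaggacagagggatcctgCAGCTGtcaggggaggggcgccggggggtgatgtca
Dsp, chr13:38151174-38151293, plus strand: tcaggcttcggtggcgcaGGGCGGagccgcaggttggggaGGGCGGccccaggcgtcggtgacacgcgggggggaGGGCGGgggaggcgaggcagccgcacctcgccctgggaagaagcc
Jup, chr11:100397791-100397910, minus strand: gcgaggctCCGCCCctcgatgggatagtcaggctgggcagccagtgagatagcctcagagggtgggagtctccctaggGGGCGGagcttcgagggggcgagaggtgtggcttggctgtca
Gja1, chr10:56377180-56377299, plus strand: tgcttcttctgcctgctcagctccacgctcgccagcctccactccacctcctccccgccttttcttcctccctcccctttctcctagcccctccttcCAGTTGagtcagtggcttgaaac

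The GC box matched 2 times in Des, 3 times in Dsp and 2 times in Jup, and it was not matched in Gja1. In stretches not printed it matched 2 times in Tjp1, whose log2 fold change of 0.06 was also near 0. It matched in no Ctnna3 promoter. The matches thus did not separate the higher genes from those near 0. Among all 32851 promoter windows of this length 26.5% held it. The E-box matched once in Des and once in Gja1 and was held by 40.2% of windows, and no TATA box or M-CAT element, held by 6.34% and 5.82% of windows, was matched in these 4 stretches. Bases just after the start were found in a coding transcript of the older NCBIM37 annotation for Gja1, but not for Des, Dsp and Jup. The start and strand of these 3 stretches thus rest on RefSeq alone. These matches describe letters and are neither binding sites nor causes.

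The genes differed widely in level. Per kilobase of exon (in the NCBIM37 annotation, which is older than that of the counts), ac-WT hearts had 635 ± 164 CPM per kb (SD, n = 6) of Des and 92.5 ± 15.7 CPM per kb (SD, n = 6) of Gja1, each apart from the next in all 6 hearts. Then followed Dsp with 24, Pkp2 with 21.9, Jup with 17.7 and Cdh2 with 15.3 CPM per kb, in which neighbours overlapped between hearts. Tjp1 had 4.52, Dsc2 2.67 and Dsg2 2.62 CPM per kb, again with overlapping neighbours, and Ctnna3 was the lowest with 0.948 CPM per kb, apart from Dsg2. The desmosomal cadherins thus had a level per kb below that of each plaque partner.

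Reads of 2 genes in the same heart can be compared without any scaling factor. For every 100 Dsp reads there were 3.56 to 11.8 Dsc2 reads in the ac-WT group and 2.34 to 3.53 in the ac-CYB5R3–KO group, 2 ranges without overlap. Of all other genes tested, 1.44% were likewise lower without overlap when counted per Dsp read. The means were 6.25 ± 3.08 (SD, n = 6) and 2.92 ± 0.530 (SD, n = 6), and the 4 ac-WT hearts other than mice 2 and 3 had a mean of 4.45. The lowest ac-WT heart, mouse 6, was just above the highest ac-CYB5R3–KO heart. For Dsg2 there were 6.08 to 14.3 reads per 100 Dsp reads in the ac-WT group and 4.35 to 6.54 in the ac-CYB5R3–KO group, and these ranges overlapped. With Jup in place of Dsp both cadherins overlapped, and for every 100 Jup reads there were 7.56 to 23.5 Dsc2 reads in the ac-WT group and 5.03 to 7.64 in the ac-CYB5R3–KO group. These pairs were chosen after the values were seen and are given as descriptions only.

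**Figure D3:**
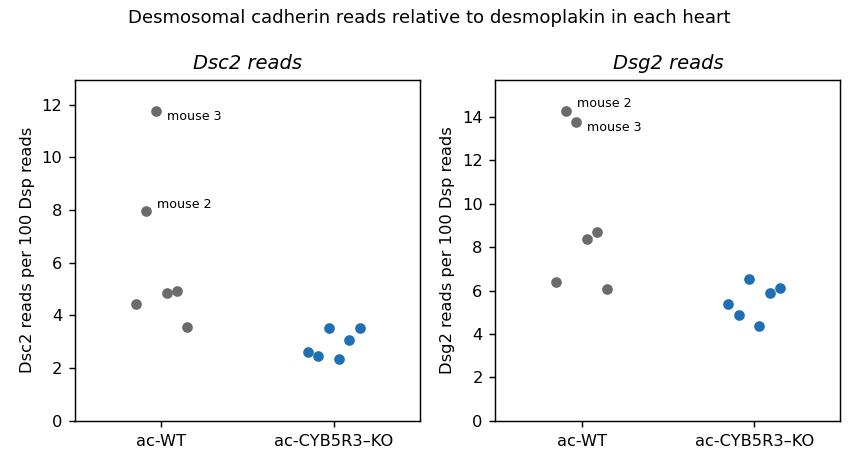
Dsc2 reads (left) and Dsg2 reads (right) per 100 Dsp reads in each heart (vertical axes, linear from 0), with ac-WT hearts in grey, ac-CYB5R3–KO hearts in blue and ac-WT mice 2 and 3 marked. The Dsc2 values of the groups did not overlap, at 3.56 or more in ac-WT and 3.53 or less in ac-CYB5R3–KO hearts, while the Dsg2 values did, as did the Dsc2 values per 100 Jup reads (not drawn).

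Of 9 other within-heart ratios, none differed at an adjusted p under 0.05 (two-sided exact permutation test with Benjamini-Hochberg adjustment over the 9), and 1 had an unadjusted p under 0.05. On the scale of log2(CPM + 1), Dsg2 exceeded Dsc2 by 0.62 ± 0.23 (SD, n = 6) without the deletion and by 0.85 ± 0.08 (SD, n = 6) with it (exact permutation p = 0.0108, adjusted p = 0.0974). Without ac-WT mouse 2 this difference of 0.23 became 0.27 and passed the threshold (exact permutation, adjusted p = 0.0390). The 2 α-catenins kept nearly the same ratio, with Ctnna3 minus Ctnna1 at -5.23 ± 0.13 (SD, n = 6) and -5.15 ± 0.13 (SD, n = 6; exact permutation p = 0.258). The difference between the groups was 0.03 for Tjp1 over Gja1, -0.07 for Jup over Dsp, -0.20 for Pkp2 over Dsp, -0.31 for Dsp over Des, -0.09 for Jup over Ctnnb1 (β-catenin), -0.12 for Gja1 over Cdh2 and -0.001 for Gja5 (connexin 40) over Gja1, all smaller than the SD of the ac-WT ratios.

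Disc genes were also set against the mean of 10 cardiomyocyte markers in the same heart. On that scale Des was higher in ac-CYB5R3–KO hearts by 1.06, Dsp by 0.75, Jup by 0.68, Cdh2 by 0.62, Pkp2 by 0.55, Tjp1 by 0.52, Gja1 by 0.50 and Ctnna3 by 0.43 (log2), while Dsg2 differed by 0.04 and Dsc2 by -0.19. Thus 9 of 10 lay above 0, as did 95.4% of all genes. For Gja1, Dsp, Pkp2 and Jup every ac-CYB5R3–KO heart lay above every ac-WT heart (exact permutation p = 0.00216, the smallest that 6 mice against 6 allow). However, 33.0% of all genes were higher at an exact permutation p under 0.05 on this scale, 2.05% were higher at the smallest p, and the median of all genes was 0.447. On this scale 0.555% of all genes were lower at an exact permutation p under 0.05. Of the 10 markers, Myh6, Tnni3, Myl2 and Myl3 were lower at an unadjusted edgeR p under 0.05, as were 9.73% of all genes in edgeR. The adjusted p over all genes tested was 0.102 for Gja1, Dsp, Pkp2 and Jup, and 0 of the 10 disc genes passed 0.05, whereas 6 of them, those 4 with Cdh2 and Ctnna3, passed without ac-WT mouse 5, where 8.94% of all genes passed in that direction. Against the other 6 markers the differences were 0.80 for Des (exact permutation p = 0.00649), 0.49 for Dsp (exact p = 0.00866), 0.42 for Jup (exact p = 0.0152) and -0.45 for Dsc2 (exact p = 0.0130). Cdh2 at 0.36 (exact p = 0.0325) and Pkp2 at 0.29 (exact p = 0.0433) were also under 0.05 unadjusted. None of these 6 passed after adjustment over all genes tested (exact permutation, adjusted p from 0.544 to 0.609), with a median of 0.191 over all genes. On this scale 8 of the 10 disc genes lay above 0, as did 81.4% of all genes. The 5.22% of all genes that were higher at p under 0.05 with these 6 markers is the background for those values, and lower genes made up 1.93%. The 6 markers were chosen by their p in the same comparison, so the exact p against them are descriptions only.

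**Figure D4:**
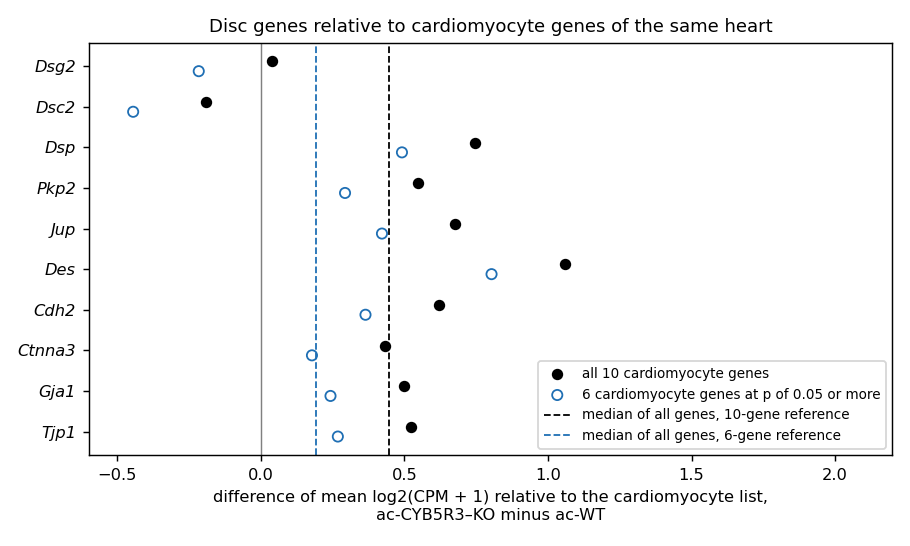
Difference of the ac-CYB5R3–KO mean from the ac-WT mean (horizontal axis, log2(CPM + 1)) of each disc gene after subtracting the mean of 10 cardiomyocyte markers of the same heart (black) or of the 6 markers at an unadjusted p of 0.05 or more (open blue). The dashed lines are the medians of all genes tested, 0.447 and 0.191. Des, Dsp and Jup lay to the right of both medians, as did Cdh2, Pkp2, Tjp1 and Gja1 by less, and Dsc2 and Dsg2 lay far to the left.

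The disc genes also varied from mouse to mouse within the groups. Mouse 2 of the ac-CYB5R3–KO group was the highest of the 12 hearts for 6 of the 10 genes, and the highest of its own group for 8. After subtracting the group means of log2(CPM + 1), 34 of the 45 pairs had a Pearson r above 0 over the 12 hearts. By permutation test with 100000 resamples, r had an adjusted p under 0.05 over the 45 pairs in 8 of them. By Spearman's rho 1 of the 45 pairs had an adjusted permutation p under 0.05, and in 3 of the 8 pairs r was under 0.5 without the 2 hearts farthest from the median. All genes of a library share its scaling factor and its cell makeup. Shares over pairs of other genes are not given here, so these counts cannot be called particular to the disc genes. The closest pair was Dsg2 and Dsc2 (r = 0.91, adjusted permutation p = 0.0036, Spearman rho = 0.93, adjusted permutation p = 0.00315), and r was again 0.91 without ac-WT mice 2 and 3, which were farthest from the median. Dsp and Jup had r = 0.75 (adjusted permutation p = 0.0311, rho = 0.76 with adjusted permutation p = 0.0790) and 0.90 without ac-CYB5R3–KO mice 2 and 3. In contrast, Dsp and Cdh2 had r = 0.82 (adjusted permutation p = 0.0295, rho = 0.52 with adjusted permutation p = 0.365) but 0.39 without ac-CYB5R3–KO mice 2 and 3, so their relation rested on these mice. The lowest r was -0.67 for Tjp1 and Des (adjusted permutation p = 0.0788, rho = -0.57 with adjusted permutation p = 0.333), and it was -0.70 without ac-WT mice 1 and 2.

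Among 7378 genes with a symbol and a mean of at least 10 CPM, those whose deviations over the 12 hearts were most like Dsp were Tead1 (r = 0.96, rho = 0.85), a TEAD family transcription factor, Yap1 (r = 0.93, rho = 0.72), a transcriptional coactivator, and Phf10 (r = 0.93, rho = 0.87). Without the 2 hearts farthest from the median of Dsp, r was 0.92, 0.84 and 0.81. For Gja1 the closest genes were Akap6 (r = 0.93, rho = 0.84), an anchoring protein of protein kinase A, Daam1 (r = 0.92, rho = 0.89) and Pcca (r = 0.92, rho = 0.85). For Ctnna3 they were Ghr, the growth hormone receptor gene, Sucla2 and St3gal5 (r = 0.95 each). For Des they were Fam105b (r = 0.97), Gnao1 (r = 0.95) and Gabarap (r = 0.94). These genes were picked as the highest of many, so that no p is given.

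The other genes of the disc were taken from 7 lists by role. Of 65 genes 62 were matched, 54 were tested and 8 had too few counts, among them the skin desmosomal genes Pkp1, Dsg1a, Dsc1, Dsc3 and Dsg3. None of the 54 had an adjusted p under 0.05 in edgeR, 4 were higher and 2 lower at an unadjusted p under 0.05, and their median log2 fold change was 0.014. The background was 14.6% of all genes, a larger share than 6 of 54. Of the 54 genes 26 were below 0, beside 51.2% of all genes. With total counts as scaling, which moves all genes, it was 6 beside 18.1%, and without ac-WT mice 2 and 3 it was 17 beside 46.3%.

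Xirp2, which encodes an actin-binding Xin repeat protein of the disc, had the highest log2 fold change among them. It had 191 to 420 CPM (median 230.0) in the ac-WT group and 476 to 856 CPM (median 622) in the ac-CYB5R3–KO group. It was the 1 gene of the 54 in which the groups did not overlap, which 0.51% of all genes did in this direction. Its log2 fold change was 1.25, a 2.38-fold difference (SE 0.23, adjusted p = 0.0715, edgeR), and 1.06 without ac-WT mice 2 and 3. Its adjusted p was 9.08e-05 in DESeq2 and 0.0670 in limma-voom.

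Scn4b, a β subunit of voltage-gated sodium channels, had a median of 1.49 CPM in the ac-WT group and of 0.583 CPM in the ac-CYB5R3–KO group, and the groups overlapped. It had a log2 fold change of -1.35 (SE 0.54, unadjusted p = 0.0258, adjusted p = 0.272, edgeR) at means of 1.97 ± 1.70 CPM (SD, n = 6) and 0.753 ± 0.554 CPM (SD, n = 6), and -0.76 without ac-WT mice 2 and 3.

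Fhl2, a LIM-domain protein, had 700.0 to 1011 CPM in the ac-WT group and 428 to 791 CPM in the ac-CYB5R3–KO group, with all 6 of the latter below the ac-WT median (log2 fold change -0.50, SE 0.15, adjusted p = 0.196, edgeR). Its adjusted p was 0.0456 in DESeq2. Pdlim1, a PDZ and LIM-domain protein of the actin skeleton, differed by 0.31 on the log2 scale (unadjusted p = 0.0206, adjusted p = 0.260, edgeR), and all 6 ac-CYB5R3–KO hearts lay above the ac-WT median. Gja4, connexin 37 of the vessel wall, also had 0.31 (unadjusted p = 0.0262, adjusted p = 0.272, edgeR). The highest and lowest log2 fold changes of the lists without such a gene were 0.20 for Tmem43 and -0.10 for Perp in the desmosome, 0.12 for Cgnl1 and -0.26 for Magi1 in the scaffold and 0.46 for Krt18 and -0.14 for Krt8 in the intermediate filament list. Total counts as scaling turned Perp and Magi1 above 0, and limma-voom turned Krt8. Without ac-WT mice 2 and 3, Tmem43 was at 0.052, Perp at -0.059 and Cgnl1 at 0.20. Magi1 was then at 0.038, Krt18 at 0.066 and Krt8 at -0.57.

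**Figure D5:**
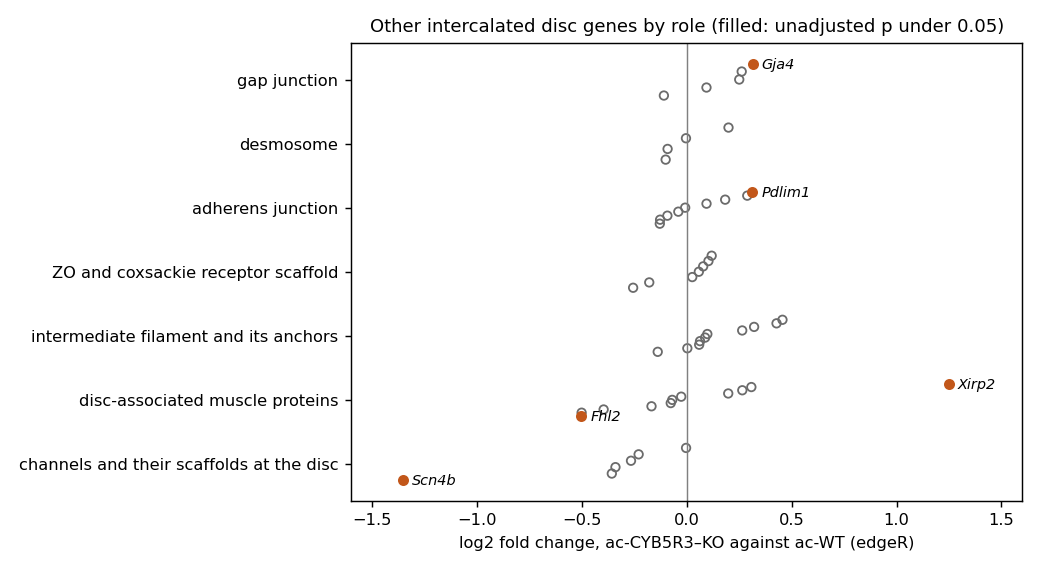
Log2 fold change of ac-CYB5R3–KO against ac-WT hearts from edgeR (horizontal axis) for the other disc genes reported here, 1 point per gene, grouped by role, with filled points at an unadjusted p under 0.05. Most points lay near 0, and Xirp2 at 1.25 and Scn4b at -1.35 stood farthest out.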

How the data were processed

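RNA of 6 ac-WT and 6 ac-CYB5R3–KO hearts was read as 75 bp unpaired reads from a stranded total RNA kit. The authors deposited raw counts, a whole number of reads for each of 53700 Ensembl genes, without normalization. The submitters' processing notes name STAR, featureCounts and GRCm39, whereas the methods of the study name STAR with mm9 and Cufflinks. Strand setting and annotation release are not given in the sources used here, and antisense genes overlap 220 bp of Des, 330 bp of Dsg2 and 360 bp of Dsp in the NCBIM37 annotation, whose reads cannot then be told apart. Symbols were matched for 31027 identifiers (57.8%), and Afdn and Adgre1 were found under older symbols. No sample column was left unused.

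Genes were filtered by filterByExpr (minimum count 10), scaled by TMM and tested by edgeR quasi-likelihood (version 4.0.16, R 4.3.3; two-sided, without covariates), and p-values were adjusted after Benjamini-Hochberg across 17847 genes. The study's Cuffdiff test needs reads and was not used. For single values, on log2(CPM + 1), all 924 divisions of the 12 mice into groups of 6 were enumerated (exact permutation, two-sided). Levels relative to the cardiomyocyte list were adjusted over all genes tested, not over the 10 genes as first planned. Named were the 10 genes, and from each of 7 wider lists the genes at an unadjusted p under 0.05 or otherwise the highest and lowest. Some genes counted in these lists are not reported here by name or in the plot of the lists. Marker lists covered 11 cell types. The members and lists were chosen with earlier results of these data known. As alternatives served limma-voom (limma 3.58.1), DESeq2 (1.42.0), median-ratio factors or total counts, other filters, the replicate number as a block, other pseudocounts and leaving out mice. The tests were checked on simulated counts. Each disc gene had at least 229 counts in every library, so that the precision depended mainly on the variation among mice. No molecular identifiers were used.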

Additional observations from a re-analysis of the deposited data

Results flagged for a closer look

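In 84 groups of 6 hearts checked for a single heart far from the rest, 6 were found, where chance gives about 1 in 20 groups. None was a CPM value of the 10 disc genes. Relative to the cardiomyocyte markers, Tjp1 in ac-CYB5R3–KO mouse 3 stood at -4.87 (log2) against -5.69 to -5.39 in the other hearts of its group. Magi1 stood apart at 30.2 CPM in ac-WT mouse 3, where the rest of its group had 8.68 to 13.2 CPM, and at 15.4 CPM in ac-CYB5R3–KO mouse 3, against 10.8 to 11.98 CPM. Scn4b stood apart at 5.21 CPM in ac-WT mouse 2, against 0.643 to 2.28 CPM, and at 1.81 CPM in ac-CYB5R3–KO mouse 2, against 0.305 to 0.863 CPM. Krt8 stood apart at 2.73 CPM in ac-CYB5R3–KO mouse 6, against 0.765 to 1.38 CPM.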

How the results depend on the processing

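The number of disc genes with an adjusted p under 0.05 was 0 in all 20 other model fits. Leaving out each mouse in turn gave 2 to 5 disc genes at an unadjusted p under 0.05 (2 without ac-CYB5R3–KO mouse 4) and 2 to 4 below 0 (4 without ac-CYB5R3–KO mouse 2), 5 to 10 wider genes at an unadjusted p under 0.05 (10 without ac-WT mouse 1 or 6), 0 to 1 ratios at an adjusted p under 0.05 (1 without ac-WT mouse 2) and 0 to 6 relative levels (6 without ac-WT mouse 5, with 8.94% of all genes). Apart from the 8.94%, shares of all genes are not given for these fits. The counts therefore show only how they moved with a mouse left out. Wider genes below 0 numbered 6 with total counts and 17 without ac-WT mice 2 and 3, against 26. Signs turned for values near 0. With a mouse left out, log2 fold changes ran from -0.015 to 0.15 for Gja1, -0.10 to 0.063 for Ctnna3, -0.37 to 0.11 for Magi1 and -0.52 to 0.25 for Krt8. Ratio differences ran from -0.11 to 0.095 for Tjp1 over Gja1, -0.15 to 0.021 for Jup over Dsp, -0.20 to 0.017 for Jup over Ctnnb1 and -0.19 to 0.15 for Gja5 over Gja1, and relative Dsg2 from -0.0045 to 0.073. Median-ratio factors gave -0.0019 for Ctnna3, total counts 0.17 for Perp and 0.066 for Magi1, limma-voom 0.086 for Krt8 and a pseudocount of 0.5 0.00032 for Gja5 over Gja1. Without ac-WT mice 2 and 3, Magi1 was 0.038, Tjp1 over Gja1 -0.054 and Jup over Ctnnb1 0.043. Dsg2 against 6 cardiomyocyte markers, added after seeing the data, was -0.22. The causes were not tested.

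Replicate numbers name different mice, and deviations of equally numbered mice correlated between -0.08 and 0.35, so that they were not treated as pairs. A block for that number left 0 disc genes past the adjusted and 4 past the unadjusted threshold, with Ctnna3 at -0.012 and Krt8 at 0.050. The share of all genes under the block is not given here, so the 4 cannot be set against a background. The call of Cyb5r3 was lost under the block (adjusted p = 0.100, edgeR), under limma-voom (adjusted p = 0.0561), with total counts (adjusted p = 0.315, edgeR) and without any of 7 single mice, while all of its log2 fold changes stayed below 0.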
